A study of Homo sapiens with 4 samples.

Results

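The transcriptome of SUM159 cells treated with palbociclib alone was compared with that of untreated cells, gene by gene and across all gene functions. SUM159 is an established triple-negative breast cancer line. Genes were included where the mean of both libraries was at least 5 CPM (the reads of a gene divided by all reads counted in genes of that library, on the usual scale of counts per 1000000), which left 11263 genes of the 24843 with at least 1 read in either library. Of the 11263 genes, 11211 had a symbol, and together they held 99.1% of the gene reads of each library. The last gene included had a mean of 5.01 CPM and the first one left out a mean of 4.9993 CPM. The filter used the mean level, so a gene that was high in only 1 of the libraries could pass through that library alone.

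The series held 4 libraries, 1 per condition, from untreated cells, cells given palbociclib, cells given indisulam (a sulfonamide that causes degradation of the splicing factor RBM39) and cells given both drugs. The sample labels state 10 days of treatment with 0.5 µM palbociclib, 2 µM indisulam or both, whereas the text on the series states 16 h with 2 µM and 3 µM, and technical duplicates. The study's methods describe RNA sequencing after each treatment, with Hisat2 named as the aligner for the shorter one, whereas the submitters' processing notes on these libraries name TopHat2, and the labels were followed for the groups. The dose and the duration remain stated in conflicting ways. All cells were grown in medium with serum, insulin and hydrocortisone. There were no replicates, so each ratio below is between single libraries, has no replicate check and carries no p-value.

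Palbociclib inhibits the cyclin-dependent kinases CDK4 and CDK6, which pair with D-type cyclins and phosphorylate the retinoblastoma protein RB. Unphosphorylated RB holds E2F transcription factors inactive. E2F drives genes of the G1/S transition such as cyclin E and the replication helicase, and a later wave of mitotic genes is switched on by FOXM1, B-MYB and the MuvB complex through promoter elements known as cell cycle genes homology regions (CHR). Cells held in G1 by CDK4/6 inhibitors can enter a senescence-like state in which they grow in size and secrete matrix and signalling proteins.

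The untreated library held 12555908 gene reads and the palbociclib library 12691481. The floor used here, 3 reads, corresponded to 0.239 and 0.236 CPM, and the 5 CPM limit to 62.8 and 63.5 reads. Markers of mesenchymal-type breast cancer cells were present in both libraries, with vimentin (VIM) at 57726 and 36565 reads and CD44 at 10238 and 9628. Of 7 luminal markers ESR1 (5 and 12 reads), PGR (1 and 0), CDH1 (14 and 10), EPCAM (14 and 5) and FOXA1 (19 and 57) were under the limit, while GATA3 had 137 and 70 reads and ERBB2 had 1792 and 1739. Among leukocyte markers CD3E had no read in any library, while PTPRC was at 12.2 and 12.5 CPM and CD14 at 9.24 and 5.44 CPM. Among endothelial markers PECAM1 had 191 and 519 reads, whereas CDH5 (5 and 23) and VWF (6 and 4) were under the limit.

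A gene was called higher or lower with palbociclib where its ratio was at least 2-fold and the 95% interval of the log2 ratio, from Poisson counting error only, excluded 0. By this rule 395 genes were higher (3.51% of those tested) and 402 were lower (3.57%), and the median log2 ratio of all genes was -0.03. The middle 50% of the genes lay between log2 ratios of -0.32 and 0.27. At least 4-fold differences were called for 73 higher and 39 lower genes, and at least 8-fold differences for 14 and 3. Long noncoding RNAs were called more often than protein-coding genes, with 20 of 319 higher (6.27%) and 25 of 319 lower (7.84%), against 3.27% and 3.46% of 10749 protein-coding genes. The share called also moved with the level. It was 6.96% higher and 6.01% lower between 5 and 20 CPM. From 20 to 100 CPM it was 1.9% and 2.61%, and at 100 CPM or more 2.46% and 2.30%. The part of the level in the difference between the classes was not tested.

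**Figure D1:**
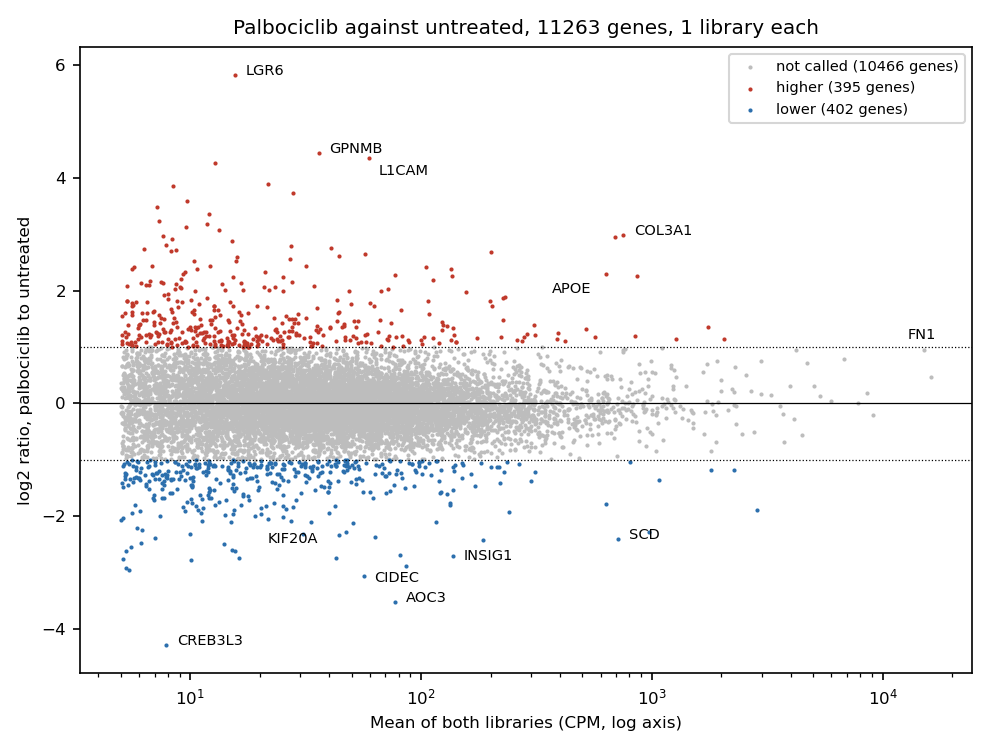
Each point is 1 of the 11263 genes, with the mean CPM of both libraries on the log x axis and the log2 ratio of palbociclib to untreated on the y axis. Red points are the 395 genes called higher and blue points the 402 called lower, and the dotted lines mark 2-fold. The share of points called is largest between 5 and 20 CPM.

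The gene with the largest ratio was LGR6 (ENSG00000133067, chr1:202193799-202319781 on GRCh38), a receptor for R-spondins, which had 6 reads in the untreated library and 390 in the palbociclib library. Its log2 ratio was 5.81 (95% interval 4.80 to 6.83). GPNMB, a transmembrane glycoprotein of lysosomes and melanosomes, had 39 and 877 reads, which is a log2 ratio of 4.44. The adhesion molecule L1CAM had 69 and 1433 reads (log2 ratio 4.34). All of these were low in untreated cells and well above the limit with palbociclib. IGFBP5, which binds insulin-like growth factors, followed with 15 and 308 reads, and the fibril-associated collagen COL14A1 with 34 and 519. The copper carrier ceruloplasmin (CP) had 48 and 658 reads and IL34, a ligand of the CSF1 receptor, had 14 and 167. Each of these was under 5 CPM in the untreated library. RERG, BPIFB4, PARM1, CLEC3B, PLEKHS1, C4A, COL3A1 and LGALS9 completed the 15 highest, with log2 ratios between 2.97 and 3.85. Of the 15, COL3A1 was the most highly counted in both libraries, with 2112 and 16998 reads. C4A and its near-identical copy C4B share reads, so the counts of each are uncertain.

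At the other end CREB3L3 (ENSG00000060566, chr19:4153631-4173054), a transcription factor tethered to the endoplasmic reticulum, had 189 reads in the untreated library and 9 in the palbociclib library, a log2 ratio of -4.28 (interval -5.16 to -3.40). The amine oxidase AOC3 had 1782 and 156 reads (log2 ratio -3.52), and CIDEC, which promotes the fusion of lipid droplets, had 1270 and 154 (-3.05). AOC2, the neighbouring paralog of AOC3, was also among the 15 lowest, with 338 and 55 reads. Both encode copper amine oxidases. PHGDH, the first enzyme of serine synthesis, had 1904 and 262 reads. ASNS, which makes asparagine, had 1762 and 278, and the mitochondrial arginase ARG2 had 355 and 53. INSIG1, the sterol-regulated protein that holds the SREBP precursors in the endoplasmic reticulum, had 2989 and 465. The prostaglandin-inactivating enzyme HPGD, the kinase WNK4, the exchange factor NGEF, the proton pump subunit ATP6V0D2, THEMIS2, NEURL1B and the hypoxia-induced carbonic anhydrase CA9 made up the rest, with log2 ratios between -2.95 and -2.59.

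**Figure D2:**
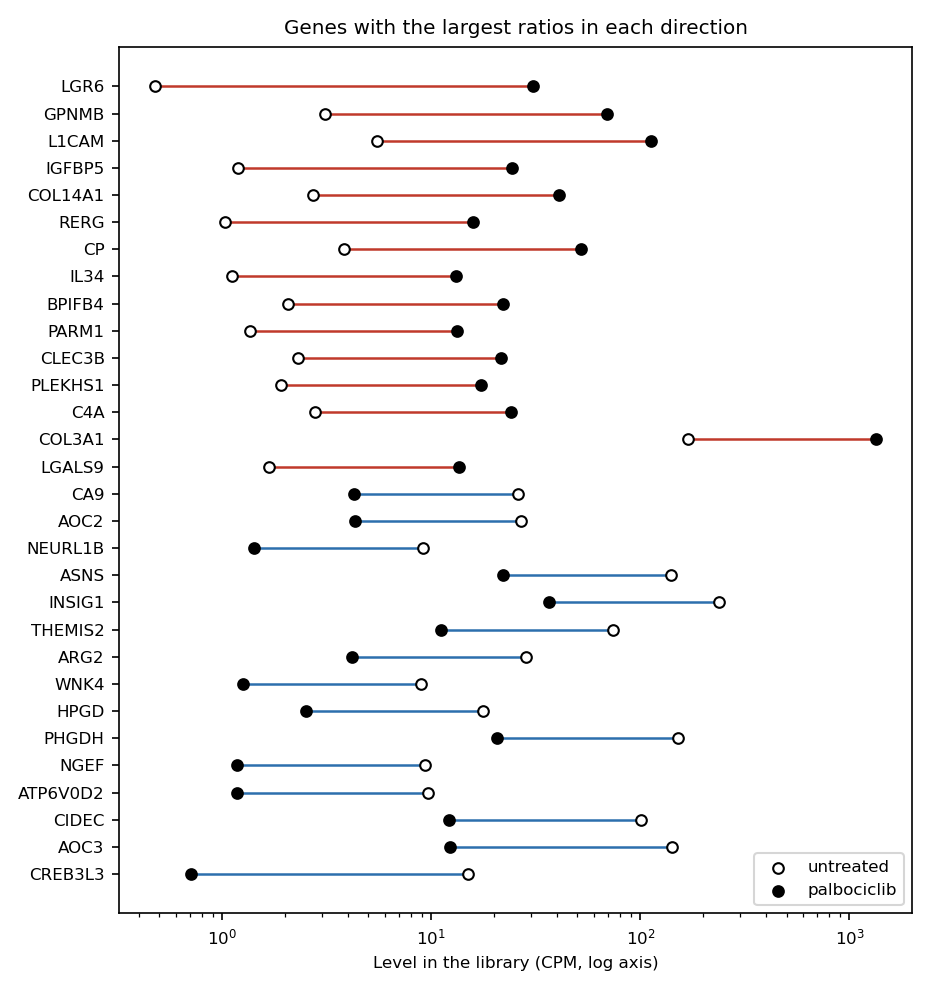
Level of the 15 genes with the highest and the 15 with the lowest ratio, in CPM on a log axis, with an open circle for the untreated library and a filled circle for the palbociclib library. LGR6 moves from 0.478 to 30.7 CPM and CREB3L3 from 15.1 to 0.709 CPM, and COL3A1 stands apart from the other genes by its level of 168 and 1339 CPM.

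To describe the difference by function, 37 gene lists were counted. Each count of called members is to be read beside the shares of all genes, 3.51% higher and 3.57% lower. The lists held 1025 of the tested genes and 154 of the 797 called genes (19.3%), so most called genes lay outside them.

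Genes of mitosis formed the list with the lowest median. All 74 tested members had a ratio below 1, and 36 of them (48.6%, against 3.57% of all genes) were called lower and none higher. Their median log2 ratio was -0.98. The kinesin KIF20A had 919 reads in untreated and 185 in palbociclib-treated cells, and the kinesin KIF2C had 646 and 130, both a log2 ratio of -2.32. Securin (PTTG1), which blocks separase until anaphase, had 982 and 203 reads (-2.28), and survivin (BIRC5), a subunit of the chromosomal passenger complex, had 1037 and 242 (-2.11). The proliferation marker MKI67 had 1578 and 565 reads and topoisomerase TOP2A 4032 and 1531. These genes remained well above the counting floor in the palbociclib library. In a bulk library, fewer cells in mitosis and less RNA per mitotic cell cannot be told apart.

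Promoter sequences were set beside this list because the CHR is known from promoters of many mitotic genes. RefSeq promoters (GRCh38.p14, 250 bases before to 50 after the first listed start of each gene) were found for 9080 tested genes and for 64 of the 74 mitotic ones. The CHR letters TTTGAA were searched on both strands, so they may also appear as TTCAAA. They were present in 43 of the 64 mitotic promoters (67.2%), in 9.70% of the 9080 and in 15.4% of all 27305 promoters in the table. The letters were held by 18.8% of the 313 promoters of genes called lower and by 12.3% of the 277 of genes called higher. The letters CCAAT, read on both strands, were found in 68.8% of the mitotic promoters against 37.2% of the 9080. Stretches of 80 bases before the start are shown for the named mitotic genes that hold a match, with the matched letters in capitals (CHR for MKI67 at chr10:128126424-128126503, minus strand, and TOP2A at chr17:40418005-40418084, minus strand, and CCAAT for KIF20A at chr5:138179007-138179086 and PTTG1 at chr5:160421769-160421848, both plus strand). In the PTTG1 stretch the capitals cover a match on each strand, which overlap.
MKI67: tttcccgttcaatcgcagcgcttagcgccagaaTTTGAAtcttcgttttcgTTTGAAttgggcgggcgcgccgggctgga
TOP2A: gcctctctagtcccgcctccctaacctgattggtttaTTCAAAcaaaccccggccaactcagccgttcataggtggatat
KIF20A: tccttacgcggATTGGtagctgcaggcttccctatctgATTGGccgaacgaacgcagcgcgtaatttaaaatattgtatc
PTTG1: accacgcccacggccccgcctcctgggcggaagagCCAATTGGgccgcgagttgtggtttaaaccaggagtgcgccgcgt
A match of letters is a description of the window and does not show that a factor binds there.

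The G1 and S-phase genes did not follow the mitotic ones. Of 25 tested genes of the G1 cyclins, the CDKs and the RB-E2F axis, 5 were called higher and 1 lower, with a median log2 ratio of 0.44. Cyclin E1 (CCNE1), the partner of CDK2, had 44 reads in the untreated library and 186 in the palbociclib library (log2 ratio 2.04, interval 1.58 to 2.51). Cyclin D1 (CCND1) had 2148 and 5702 (1.39) and cyclin D2 (CCND2) 260 and 659 (1.32). Cyclin D3 (CCND3), with 1533 and 2201 reads (0.51), was not called, and cyclin E2 (CCNE2), with 21 and 27, was under the limit. The D-type and E-type cyclins that were called were thus higher in the treated cells. E2F1 had 77 and 166 reads (1.08) and LIN9, a subunit of MuvB, had 54 and 138 (1.32), both called higher. CDK4 (1515 and 1881 reads, log2 ratio 0.30), CDK6 (354 and 610, 0.77), CDK2 (503 and 466, -0.13) and RB1 (540 and 503, -0.12) were not called. Of the CDK inhibitors, CDKN1A, which encodes p21, had 776 and 792 reads (0.01) and CDKN1B, which encodes p27, had 332 and 232 (-0.53), while CDKN2D was called lower with 110 and 54 reads.

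DNA replication genes were split. Of 57 tested, 5 were called higher and 5 lower (8.77% each, against 3.51% and 3.57% of all genes), and the median log2 ratio was 0.07. Higher were the helicase subunits MCM2 (462 and 995 reads) and MCM3 (711 and 1533), ORC6 of the origin recognition complex (89 and 198), the flap endonuclease FEN1 (201 and 496) and GINS4. Lower were the nucleotide enzymes TK1 (716 and 279) and TYMS (557 and 234), the licensing factor CDT1 (317 and 126), its inhibitor GMNN and the single-strand binding subunit RPA3 (809 and 377). PCNA, the sliding clamp, had 505 and 500 reads. Reads of TYMS and RPA3 could be confused with those of genes on the opposite strand, since how the counting used strand is not given. The E2F letters GGCGGGAA, searched on both strands, were present in 12 of 49 replication promoters (24.5%) against 5.25% of the 9080, and the form TTCGCGCC in 12.2% against 1.73%. The first form stands in the promoters of a gene called lower, CDT1 (chr16:88803709-88803788, plus strand), and of one called higher, MCM3 (chr6:52284743-52284822, minus strand), in capitals in the stretches that follow.
CDT1: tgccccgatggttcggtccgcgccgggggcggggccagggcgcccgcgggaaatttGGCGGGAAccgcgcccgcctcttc
MCM3: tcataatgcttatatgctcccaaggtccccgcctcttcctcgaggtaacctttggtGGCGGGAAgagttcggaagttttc
Of 28 tested genes of homologous recombination and the Fanconi pathway, XRCC3, FANCM and XRCC2 were called higher (10.7%, against 3.51% of all genes). EME1 was called lower (3.57%, the same share as over all genes). Most replication-dependent histone mRNAs lack a poly(A) tail, and of 58 such genes found in the files 5 were tested and none was called.

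**Figure D3:**
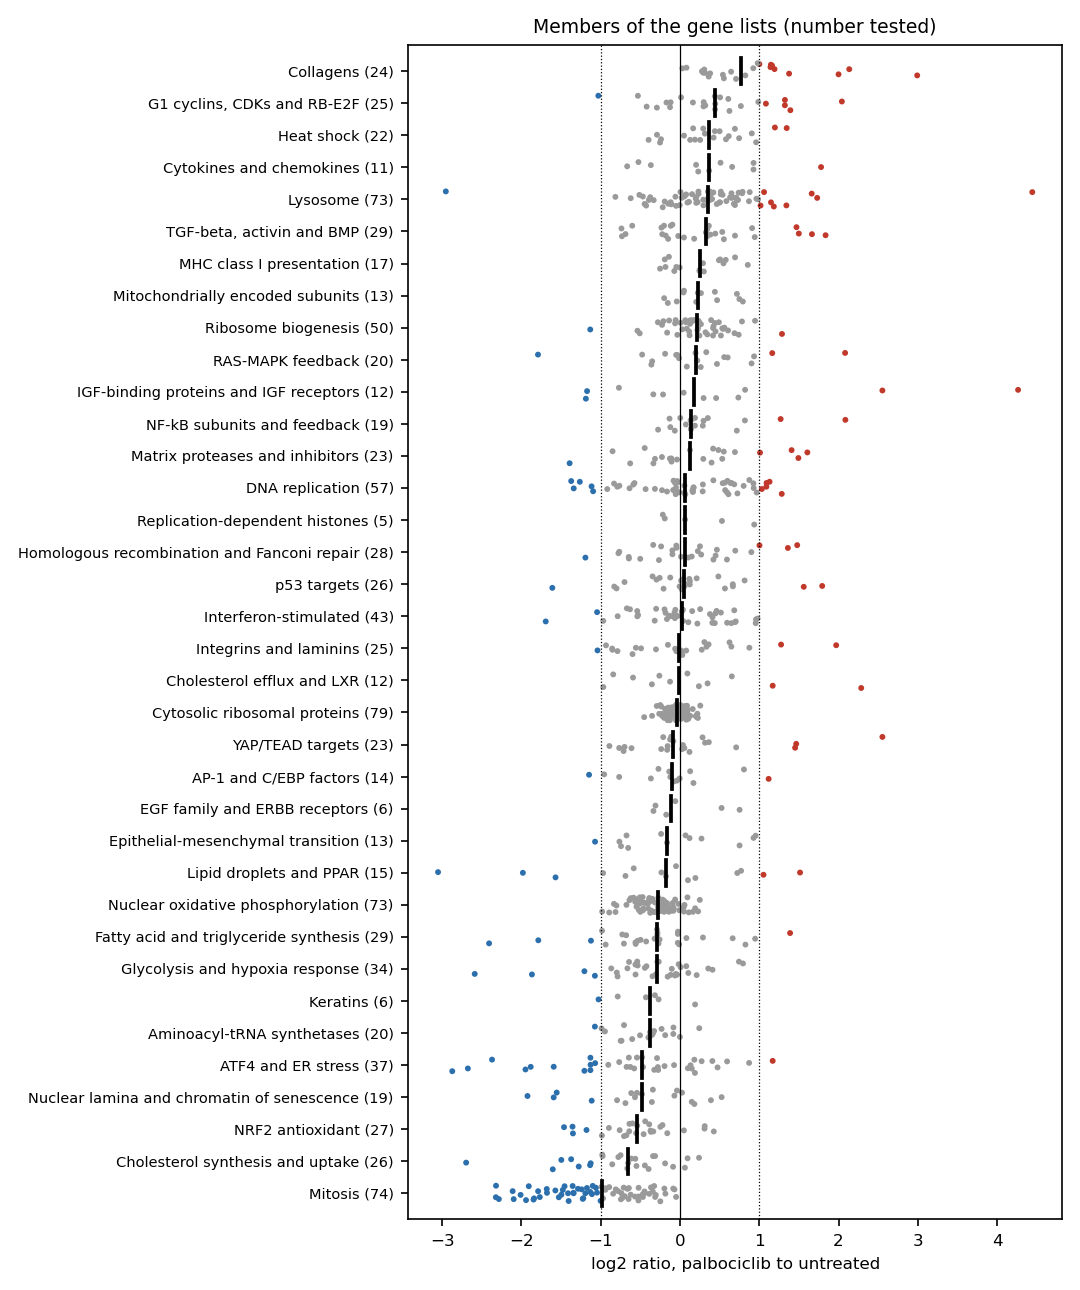
Each point is 1 tested member of a gene list, at its log2 ratio of palbociclib to untreated, with members called higher in red, called lower in blue and the median as a black bar. Lists with at least 5 tested members are shown, ordered by median, from mitosis at -0.98 to the collagens at 0.77.

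Of 26 tested genes of cholesterol synthesis and uptake, 23 were below 1 and 7 were called lower (26.9%, against 3.57% of all genes), none higher, with a median log2 ratio of -0.66. Beside INSIG1 they included the enzymes ACAT2 (292 and 104) and DHCR7, the sterol carrier STARD4 and both sterol-responsive transcription factors, SREBF1 (5430 and 2119, -1.37) and SREBF2 (3446 and 1595, -1.13). Regulators and enzymes of the pathway were thus both among the genes called. HMGCS1, an early enzyme of the pathway, had 711 and 546 reads (-0.40) and was not called. Of 29 genes of fatty acid and triglyceride synthesis 3 were called lower (10.3%) and 1 higher (3.45%, near the 3.51% of all genes), with a median log2 ratio of -0.29. The desaturase SCD had 15137 and 2882 reads (-2.41, interval -2.47 to -2.35) and fatty acid synthase FASN 12335 and 3612 (-1.79), while another desaturase, SCD5, was called higher with 41 and 110 (1.39). The SREBP-responsive letters TCACNCCAC (both strands) occurred in 96 of the 9080 promoters (1.06%) and in 1.15% of all in the table, and 9 of these 96 genes (9.38%) were called lower against 3.38% of the genes without them. SREBF2 (chr22:41832936-41833015, plus strand) was the only tested cholesterol gene with a match, 1 of 20.
SREBF2: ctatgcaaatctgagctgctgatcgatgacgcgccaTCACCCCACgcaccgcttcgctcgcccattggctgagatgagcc
Lipid droplet and PPAR genes had 3 called lower of 15, CIDEC, PPARG (1056 and 359 reads) and PDK4 (284 and 72), and 2 called higher, the fatty acid transporter CD36 (149 and 432) and the lipase MGLL (828 and 1738). Of 12 cholesterol efflux genes, the apolipoproteins APOE (2715 and 13391 reads, log2 ratio 2.29) and APOC1 (792 and 1802, 1.17) were called higher (16.7%).

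Of 37 tested genes of ATF4 and ER stress, 11 were called lower (29.7%, against 3.57% of all genes) and 1 higher (2.70%, against 3.51%), with a median log2 ratio of -0.48. PSAT1, which follows PHGDH in serine synthesis, had 1329 and 259 reads (-2.37), and PCK2, the mitochondrial phosphoenolpyruvate carboxykinase, had 797 and 208 (-1.95). DDIT3, which encodes CHOP, had 347 and 160 reads. The 1 gene called higher was the transcription factor ATF5 (153 and 349). Of 20 aminoacyl-tRNA synthetases, 19 were below 1 with a median of -0.38, and AARS1 alone was called, as lower (4546 and 2183, 5.0%). The NRF2 antioxidant list had 4 called lower of 27 (14.8%), with a median of -0.54. They were haem oxygenase HMOX1 (3148 and 1154), the transketolase TKT (19416 and 7698), AKR1B10 and AKR1C1. In glycolysis and the hypoxia response 4 of 34 (11.8%) were called lower, CA9, the aldolase ALDOC (515 and 142), DDIT4 (5457 and 2391) and the glucose transporter SLC2A3 (1556 and 747). Reads of CA9 may be shared with ARHGEF39 on the other strand, which had 64 and 17.

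None of the 73 nuclear subunits of oxidative phosphorylation was called, with 64 below 1 and a median log2 ratio of -0.28, and the lowest was COX8A (1681 and 860 reads, -0.98). None of the 13 mitochondrially encoded subunits was called either, with 10 above 1, and the highest was MT-CO3 with 62792 and 110009 reads (0.79). Mitochondrially encoded genes took 5.93% of the reads of the untreated library and 7.33% of the palbociclib library. Of the 79 cytosolic ribosomal proteins tested none was called, with a median of -0.04 and members from -0.45 (RPSA) to 0.26.

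The collagens had the highest median of the lists. All 24 tested genes of the list, which does not hold COL14A1, were above 1, and 9 were called higher (37.5%, against 3.51% of all genes) and none lower, with a median log2 ratio of 0.77. COL3A1 was the highest of the list with a log2 ratio of 2.99 (interval 2.93 to 3.06), followed by COL5A3 (77 and 345 reads, 2.14), COL11A2 (52 and 213, 2.00) and COL27A1 (246 and 647, 1.38). The others called were COL6A1, COL18A1, COL8A1, COL12A1 and COL4A4. The list thus spanned abundant fibrillar and network-forming chains as well as rare ones. Of 25 integrins and laminins, ITGA11, a collagen receptor subunit, was called higher (796 and 3156 reads), as was ITGB2 (8.0% together). ITGA5, a fibronectin receptor subunit, was called lower (13587 and 6676), a share of 4.0% against 3.57% of all genes. Fibronectin itself (FN1) had 129478 and 253480 reads, a log2 ratio of 0.95, just under the threshold. Among 23 matrix proteases and inhibitors ADAMTS5, SLPI, MMP15 and MMP7 were called higher (17.4%) and ADAMTS15 lower (4.35%).

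Of 73 tested lysosomal genes, 55 were above 1, 8 were called higher, a share above the 3.51% of all genes, and 1 lower, with a median log2 ratio of 0.35. After GPNMB the highest were cathepsin F (CTSF, 363 and 1220 reads, 1.73), the glycosaminoglycan-degrading IDUA (76 and 245, 1.66) and cathepsin O (CTSO, 287 and 737, 1.34). Prosaposin (PSAP) and progranulin (GRN), which is linked to it in trafficking, were both called higher, as were ASAH1 and AGA. TFEB, a transcription factor of the lysosomal network, had 233 and 187 reads and was not called. The letters TCACGTGA, the core of the element TFEB binds, occurred in 8 of 49 lysosomal promoters (16.3%) against 2.05% of the 9080. Among all genes with these letters 2.15% were called higher, against 3.07% of those without.

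Signalling and inflammatory lists had between 0 and 4 members called in either direction. The TGF-beta, activin and BMP list had 4 of 29 called higher (13.8%, against 3.51% of all genes), the ligand BMP4 (237 and 858 reads), its antagonist NOG (log2 ratio 1.66), the receptor TGFBR1 (180 and 516) and LTBP2 (342 and 959). Of 11 tested genes of the cytokine list, which does not hold IL34, only the chemokine CXCL12 was called, as higher (341 and 1186, 9.09%). As 29 of the 40 genes of the list were under the limit, this count depended on the filter. With a filter of 1 CPM 5 genes of the list were called higher, and with no filter 9. TRAF1 (164 and 707) and TNFRSF9 were called higher of 19 NF-kB genes (10.5%). Of 43 interferon-stimulated genes only HERC5 (194 and 60) and OASL were called, both lower (4.65%, against 3.57% of all genes). No MHC class I gene of 17 was called. The chaperones HSPA8 (12451 and 31997 reads, log2 ratio 1.35) and HSPH1 (628 and 1457) were called higher of 22 heat shock genes (9.09%). Among 26 p53 targets AEN and TIGAR were called higher (7.69%) and DDB2 lower (3.85%, near the 3.57% of all genes). In the list of IGF-binding proteins and IGF receptors 12 genes were tested. IGFBP3 (98 and 586) and IGFBP5 were called higher and IGFBP4 (31647 and 14049) and IRS2 lower (16.7% each way).

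Among the rest, FJX1, ANKRD1 and IGFBP3 of 23 YAP/TEAD targets were called higher, EGR3 and DUSP6 higher and ETV4 lower of 20 RAS-MAPK feedback genes, and FOSB higher and MAFF lower of 14 AP-1 and C/EBP factors. TWIST1 was called lower of 13 genes of epithelial-mesenchymal transition (7.69%), KRT15 lower of 6 keratins (16.7%), and none of 6 EGF family genes was called. Of 3 tested metallothioneins MT2A was called lower (2289 and 777 reads). Ribosome biogenesis had RRS1 higher and FBL lower of 50 (2.0% each, below the shares of all genes). Of 19 genes of the nuclear lamina and chromatin that change in senescence, 4 were called lower (21.1%, against 3.57% of all genes) and none higher. Among them were HMGA1 (4791 and 1276 reads), HMGB2 (1368 and 470) and lamin B1 (LMNB1, 517 and 241), whose loss is a common marker of senescent cells.

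**Figure D4:**
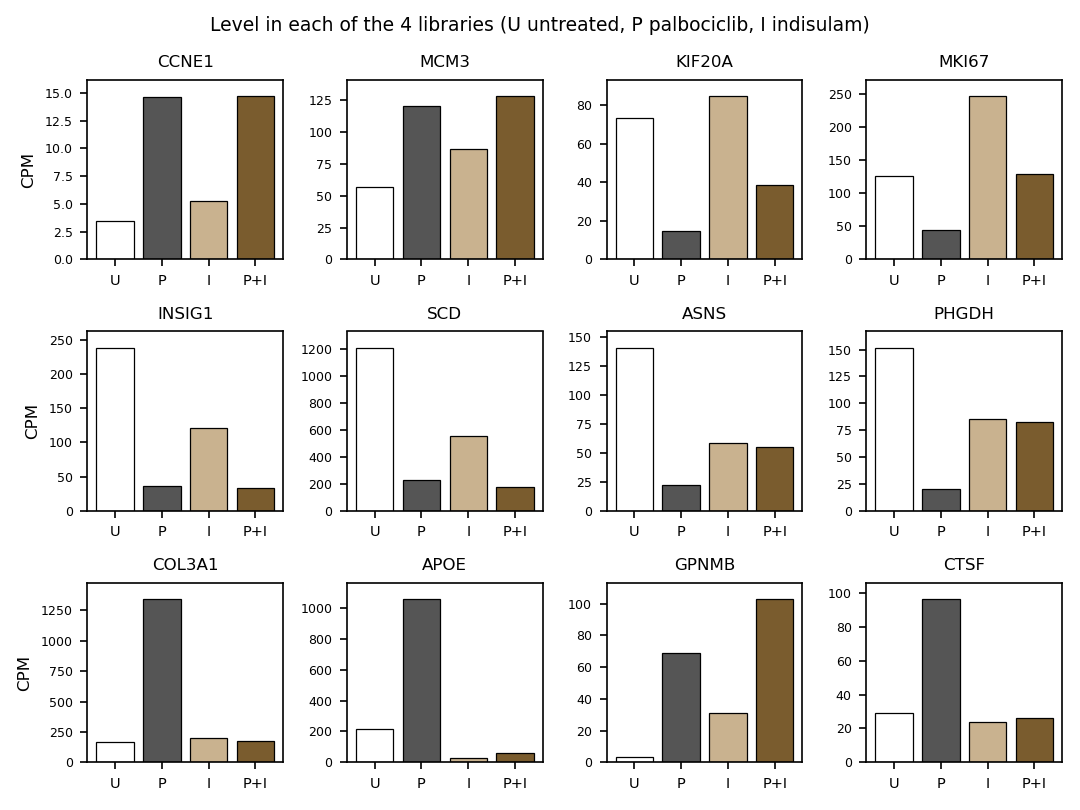
Level of 12 genes in CPM in the 4 libraries, 1 bar per library on an axis that starts at 0 and differs between panels. KIF20A goes from 73.2 to 14.6 CPM with palbociclib alone and from 84.5 to 38.6 CPM with palbociclib beside indisulam, whereas COL3A1 goes from 168 to 1339 CPM and from 202 to 179 CPM.

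The drug was also present in the combination library, and the ratio of combination to indisulam gave a comparison of palbociclib that shares no library with the first. For the same 11263 genes this ratio called 253 higher (2.25%) and 265 lower (2.35%). Of the 395 genes higher with palbociclib alone, 110 (27.8%) were also called higher beside indisulam, which was 43.5% of the 253, and 345 (87.3%) had a ratio above 1, against 46.7% of all genes. Of the 402 lower genes, 111 (27.6%, and 41.9% of the 265) were also called lower, and 355 (88.3%) had a ratio below 1, against 53.3% of all genes. Differences were smaller beside indisulam, with a median log2 ratio of 0.65 for the 395 genes, which had 1.32 alone, and of -0.70 for the 402 genes, which had -1.27. The 395 and 402 genes were chosen by their ratios with palbociclib alone, and the part of this choice and of indisulam in the smaller values was not tested. The robust standard deviation of the difference between the ratios, divided by the square root of 2, was 0.36 from 5 to 20 CPM, 0.26 from 20 to 100 CPM and 0.29 above. It holds both noise between libraries and any interaction of the drugs, but variation shared by both ratios cancels in it. It is therefore not an upper bound on the noise of 1 ratio and does not show how many calls exceed noise.

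The groups differed in how they appeared beside indisulam. Of 26 cholesterol genes 6 were called lower, 4 of them also with palbociclib alone. INSIG1 had 2015 reads in the indisulam and 485 in the combination library (log2 ratio -1.83) and SREBF1 had 3385 and 767 (-1.92). SCD had 9307 and 2497 reads (-1.68). The mitotic list had a median of -0.50, with 6 of 74 called lower (5 in both comparisons), among them KIF20A (1412 and 554 reads) and KIF2C. CCNE1 (88 and 211), CCND1 (3640 and 7608) and CCND2 (258 and 537) were called higher in both comparisons. The collagen list, in contrast, had a median of -0.10 with none called, and COL3A1 had 3378 and 2573 reads (-0.17). COL27A1 had 473 and 774 reads (0.93), and COL14A1, outside the list, was called higher with 17 and 54 (1.82). The ATF4 list had a median of 0.15 with 3 called higher and none lower, and PHGDH (1427 and 1193 reads) and ASNS (981 and 784) were not called. The medians of the collagen and ATF4 lists thus had opposite signs in the comparisons, and whether the ratios differ beyond the variation between cultures was not tested.

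**Figure D5:**
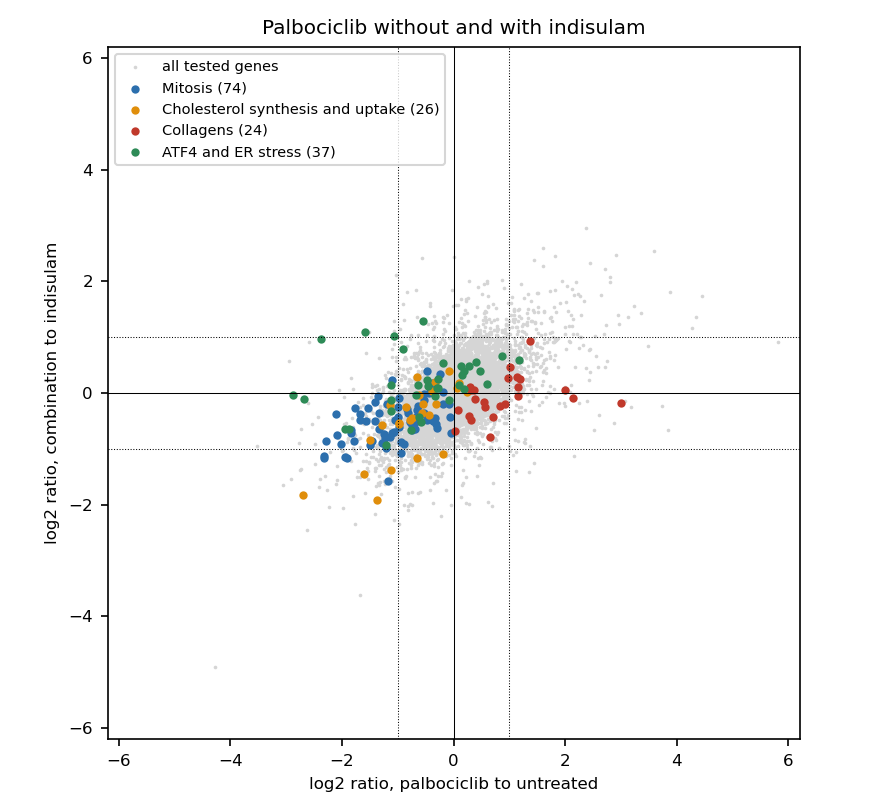
Log2 ratio of palbociclib to untreated on the x axis and of combination to indisulam on the y axis for the 11263 genes in grey, with 4 lists in colour and dotted lines at 2-fold. The mitotic and cholesterol genes lie mostly in the lower left, the collagens lie to the right around 0 on the y axis, and the ATF4 genes spread to the left with several above 0 on the y axis.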

How the data were processed

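RNA of 4 SUM159 cultures, 1 library per condition, had been prepared with a stranded mRNA kit. The authors deposited counts of reads per Ensembl gene, not normalized, in 1 table per library with 60279 genes, followed by tallies of reads that were ambiguous, in no gene or not unique, which came to 9.70% of all reads in the untreated and 10.1% in the palbociclib table and were left out. The submitters' processing notes name TopHat2 2.1, HTSeq and GRCh38. The strand setting, the annotation release and any pooling of duplicates are not given in the sources used here. Reads with several alignments were not counted, so genes with near-identical copies are undercounted, and 65 of the 175 named genes overlap an exon on the opposite strand in GENCODE release 44.

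Counts were scaled to the mean total of the 4 libraries, a pseudocount of 1 scaled count was added, and log2 ratios were given 95% Poisson intervals by the delta method (Python 3.11.15, numpy 2.4.6, pandas 2.3.3). The intervals and the floor of 3 counts hold counting error alone, because PCR copies were not marked and a read need not be a separate molecule. No test between conditions was possible with 1 library each. The script was tested on simulated counts. Alternatives used edgeR 4.0.16 and DESeq2 1.42.0 for scaling factors only (R 4.3.3).

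Named genes were the 15 highest and 15 lowest called genes with a symbol, up to 4 called genes each way per list (the 2 largest ratios where none was called), 32 cell cycle, lipid and lysosome genes and the cell type markers. Other called list members are named to complete a count and were chosen after their values were seen, as were the 7 lists used only in the closing section. Some items are not reported here. The comparison and the 37 lists were chosen with earlier results of these data known. Sequences are from RefSeq and motif matches used the first listed start of each gene.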

Additional observations from a re-analysis of the deposited data

Results flagged for a closer look

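A closer look was given to genes called in opposite directions by palbociclib alone and by palbociclib beside indisulam. There were 13 such genes of the 11263, and the difference between the comparisons was not tested. Lower alone and higher beside indisulam were CHAC1 (log2 ratio -1.59 and 1.10), the pseudogene CES1P1 (-1.51 and 1.09), the amino acid transporter SLC7A5 (-1.07 and 1.02), LPAR3 (-1.06 and 1.11), TSPAN13 (-1.06 and 1.29) and KRT15 (-1.03 and 2.11). CHAC1, which degrades glutathione, had 154 reads in the untreated, 51 in the palbociclib, 78 in the indisulam and 145 in the combination library. SLC7A5 had 1557, 749, 2136 and 3729 reads in the same order.

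Higher alone and lower beside indisulam were the protease MMP7 (1.01 and -1.03), FOXO6 (1.06 and -1.11), MEGF6 (1.11 and -1.06), FOSB (1.12 and -1.40), CPAMD8 (1.36 and -1.41), SNED1 (1.44 and -1.24) and the lysyl oxidase LOXL4 (2.16 and -1.13). FOSB, an AP-1 subunit, had 370, 813, 198 and 64 reads, and LOXL4 had 127, 575, 149 and 58.

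Lists of genes were flagged where their medians had opposite signs. These were the collagens (0.77 alone and -0.10 beside indisulam), the TGF-beta, activin and BMP genes (0.33 and -0.04), the aminoacyl-tRNA synthetases (-0.38 and 0.01) and the ATF4 and ER stress genes (-0.48 and 0.15), and these differences were not tested either.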

How the results depend on the processing

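Other scaling factors (edgeR TMM, DESeq2 median ratio, upper quartile, totals without mitochondrially encoded genes) shifted the median log2 ratio by at most 0.02 and changed no call among 175 named genes, and a pseudocount of 10 ended those of CDKN2D, XRCC2, MMP7 and KRT15. These settings moved no count of called genes, in total or for the mitotic, replication, cholesterol, ATF4, collagen and lysosomal lists, by more than 1.5 times. Counts followed the filter and the threshold. Higher and lower genes numbered 808 and 717 with a filter of 1 CPM, 1167 and 979 with no filter, 161 and 200 with a filter of 20 CPM, 1201 and 1300 at 1.5-fold, and 127 and 96 at 3-fold. Genes called the same way in both comparisons, an alternative chosen after seeing the data, numbered 255 higher and 175 lower with a filter of 1 CPM, 383 and 210 with none, 38 and 52 at 20 CPM, 438 and 500 at 1.5-fold, and 25 and 13 at 3-fold. At 20 CPM mitotic genes called lower numbered 22, and replication genes 3 higher and 3 lower. At 1.5-fold there were 17 replication genes higher and 11 lower, 25 lysosomal genes higher, 14 collagens higher and 15 cholesterol genes lower. At 3-fold there were 14 mitotic genes lower, 0 replication genes either way, 3 lysosomal genes and 3 collagens higher, 2 cholesterol genes and 6 ATF4 genes lower. With 1 library per condition no library could be left out. No paired analysis was possible because each condition had 1 library and no test was made. Batch and condition cannot be told apart.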

Other observations

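Further gene groups were counted after the values had been seen, so they are descriptions and not independent evidence. They count again some genes named above, such as C4A (complement), AOC3 (adipocytes) and PHGDH (serine synthesis). Of 17 tested complement components and regulators, 9 were called higher with palbociclib (52.9%, against 3.51% of all genes) and 2 lower (11.8%, against 3.57%), with a median log2 ratio of 1.11. C3, the central component, had 3781 reads in the untreated and 18182 in the palbociclib library, the protease C1S had 1231 and 4594, and the regulator CFI had 338 and 1367. C6, of the terminal complex, was lower with 144 and 45 reads. Beside indisulam the median of the list was -0.18. Of 32 matrix glycoproteins and proteoglycans 11 were called higher and 2 lower (34.4% and 6.25%, against 3.51% and 3.57% of all genes). Matrix Gla protein (MGP) had 2005 and 15579 reads, periostin (POSTN) 416 and 2259, versican (VCAN) 587 and 2848 and decorin (DCN) 2927 and 6994, while the basement membrane protein NID1 was lower with 2565 and 898. Of 14 tested contractile genes 5 were called higher (35.7%), ACTG2, TAGLN, MYL9, MYLK and ACTA2, all known from smooth muscle. The 1 called lower (7.14%) was TNNT1, a skeletal muscle troponin gene. Of 12 genes of MHC class II presentation 9 were under the limit and only 3 were tested. Of these 3, CD74 (67 and 322 reads) and HLA-DPA1 (73 and 247) were called higher (66.7%, against 3.51% of all genes). CD74 had 133 and 393 reads beside indisulam.

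In the other direction, 8 of 21 genes that respond to glucocorticoids were called lower (38.1%, against 3.57% of all genes) and none higher, with a median log2 ratio of -0.86 and of -0.82 beside indisulam. TSC22D3 had 20311 reads in the untreated and 4245 in the palbociclib library, glutamine synthetase (GLUL) 56493 and 15350, TXNIP 39517 and 17644 and KLF15 138 and 52. The receptor NR3C1 had a log2 ratio of 0.00, SGK1 of 0.34 and FKBP5 of -0.75. Several of these genes also respond to other signals. The study's methods state that SUM159 cells were grown with hydrocortisone. Of 10 tested genes known from adipocytes 7 were called lower (70.0%, against 3.57% of all genes) and none higher. The median was -1.67, and -1.32 beside indisulam. Among the lower genes were ADIRF (149 and 28 reads), ADH1B (129 and 27) and CNR1 (2590 and 771). The list does not hold the lipid genes CD36 (log2 ratio 1.51) and MGLL (1.05), which were called higher, so its count depends on which genes were listed. Of 11 genes of serine and one-carbon synthesis 4 were called lower alone (36.4%, against 3.57% of all genes) and none beside indisulam.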
